A study of Rattus norvegicus with 17 samples.

Results

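The S100 proteins and the annexins are calcium-binding proteins, and 10 of their genes were followed here in rat liver after bile duct ligation: S100a4, S100a6, S100a10, S100a11 and Anxa1 to Anxa6. They were taken as every probe set of the array that is annotated to exactly 1 of these symbols, which gave 15 probe sets of 31042 and 10 genes of 14217. Of the 15 probe sets, 13 were bright enough to be tested, and each of the 10 genes had at least 1 of them.

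RNA was taken from the liver of 17 rats (Rattus norvegicus) and measured with 1 Affymetrix Rat Genome 230 2.0 array per rat. The 6 sham rats underwent an abdominal incision alone with a saline infusion, 6 rats (ligated saline) underwent bile duct ligation with the same infusion, and 5 rats (ligated ghrelin) underwent ligation with recombinant ghrelin at 10 µg per kg per day. Infusions were by subcutaneous osmotic pump, surgery took place at week 7, and livers were collected at week 9. The labels give no strain and no mutation for any group, and no sham rats with ghrelin were analysed here, so ghrelin was compared only between ligated rats. Bile duct ligation stops the flow of bile into the gut and is a common model of cholestatic injury and fibrosis, and ghrelin is a hormone made mainly by the stomach.

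S100 proteins are small EF-hand proteins that mostly work as dimers: when calcium binds, a surface opens on which a partner protein docks. Annexins bind acidic phospholipids of membranes in the presence of calcium, through a core of repeated domains, and hold membranes to each other or to the actin skeleton. The families meet in fixed pairs, the best known being S100A10 with annexin A2 and S100A11 with annexin A1. In healthy liver several of these genes are known more from bile duct, mesenchymal and blood-derived cells than from hepatocytes.

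Promoter sequence was at hand for 8 of the 10 genes, and the stretch of 130 bases before the start of transcription is shown for the 5 genes of these 8 with the greatest rises after ligation. The sequences are from RefSeq, build GRCr8, written 5′ to 3′ on the gene's own strand. They lie at chr2:178398407-178398536 (S100a6, plus strand), chr2:181875002-181875131 (S100a11, plus), chr1:227303733-227303862 (Anxa1, minus), chr8:78986122-78986251 (Anxa2, plus) and chr2:121272697-121272826 (Anxa5, minus). Capitals mark matches to 4 motifs, searched on both strands, where matches may overlap each other. The AP-1 motif, which FOS and JUN proteins bind, was searched as TGANTCA. The core promoter element called the TATA box was searched as TATAAA. The GC box, a site of SP1 family factors, was searched as GGGCGG. The fourth was the CCAAT box, searched by the letters of its name.
S100a6: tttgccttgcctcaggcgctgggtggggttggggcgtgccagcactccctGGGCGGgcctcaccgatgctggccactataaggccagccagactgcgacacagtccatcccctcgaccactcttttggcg
S100a11: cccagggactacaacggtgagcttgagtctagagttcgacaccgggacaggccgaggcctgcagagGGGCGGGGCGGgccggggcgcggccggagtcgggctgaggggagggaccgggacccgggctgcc
Anxa1: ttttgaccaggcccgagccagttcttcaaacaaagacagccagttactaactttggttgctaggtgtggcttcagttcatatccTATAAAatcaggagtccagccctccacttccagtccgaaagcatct
Anxa2: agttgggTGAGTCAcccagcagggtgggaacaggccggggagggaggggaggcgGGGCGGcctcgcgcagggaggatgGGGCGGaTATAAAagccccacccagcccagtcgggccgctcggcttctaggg
Anxa5: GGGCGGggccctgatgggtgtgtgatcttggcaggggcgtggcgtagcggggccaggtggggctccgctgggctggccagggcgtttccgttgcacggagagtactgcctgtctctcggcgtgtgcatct

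The 5 windows differ in make-up. Anxa2 alone held an AP-1 match, at -123 from the start, together with GC boxes at -76 and -52 and a TATA box at -45. Anxa1 held a TATA box at -46 and was the poorest in G and C of the 8 genes, at 46.9%. S100a11 was the richest, at 74.6%, with overlapping GC boxes at -64 and -59, while S100a6 had 1 GC box at -80 and Anxa5 had 1 at -130. Over the 250 bases before the start, an AP-1 match was found in 1 of the 8 genes (Anxa2) against 6.34% of all 33469 promoters searched. A TATA box was found in 3 of 8 (S100a4, Anxa1 and Anxa2) against 12.9%, a GC box in 6 of 8 (all but S100a4 and Anxa1) against 30.5%, and a CCAAT box in 1 of 8 (Anxa4) against 34.0%. These are matches of letters, and no binding was measured.

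Among protein-coding genes of the reference annotation, S100a4 and S100a6 lie in a run of S100 genes on chromosome 2, in the order S100a1, S100a13, S100a14, S100a16, S100a3, S100a4, S100a5, S100a6, S100a7a, S100a8 and S100a9. S100a10 and S100a11 are neighbours elsewhere on chromosome 2. The annexins are spread over chromosomes 1, 2, 4, 8, 10 and 14.

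Ligation raised all 10 genes. The rises ran from 1.53-fold for Anxa6 to 30.3-fold for S100a6, and the median over the members was 3.56 on the log2 scale against 0.07 over all 9736 genes tested. The 6 annexins had a median of 3.20, and the 4 S100 genes rose by 2.53 to 4.92. All 10 of 10 passed limma's test as higher (adjusted p under 0.05), where 37.5% of all genes did. In 9 of 10 the lowest ligated saline array lay above the highest sham array, where this held for 25.9% of all genes. S100a4 is in both counts. It was bright enough to be tested only through its ligated arrays, so a rise was favoured for it in advance. In bulk tissue, more cells of a type that expresses a gene and more of its RNA per cell cannot be told apart.

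**Figure D1:**
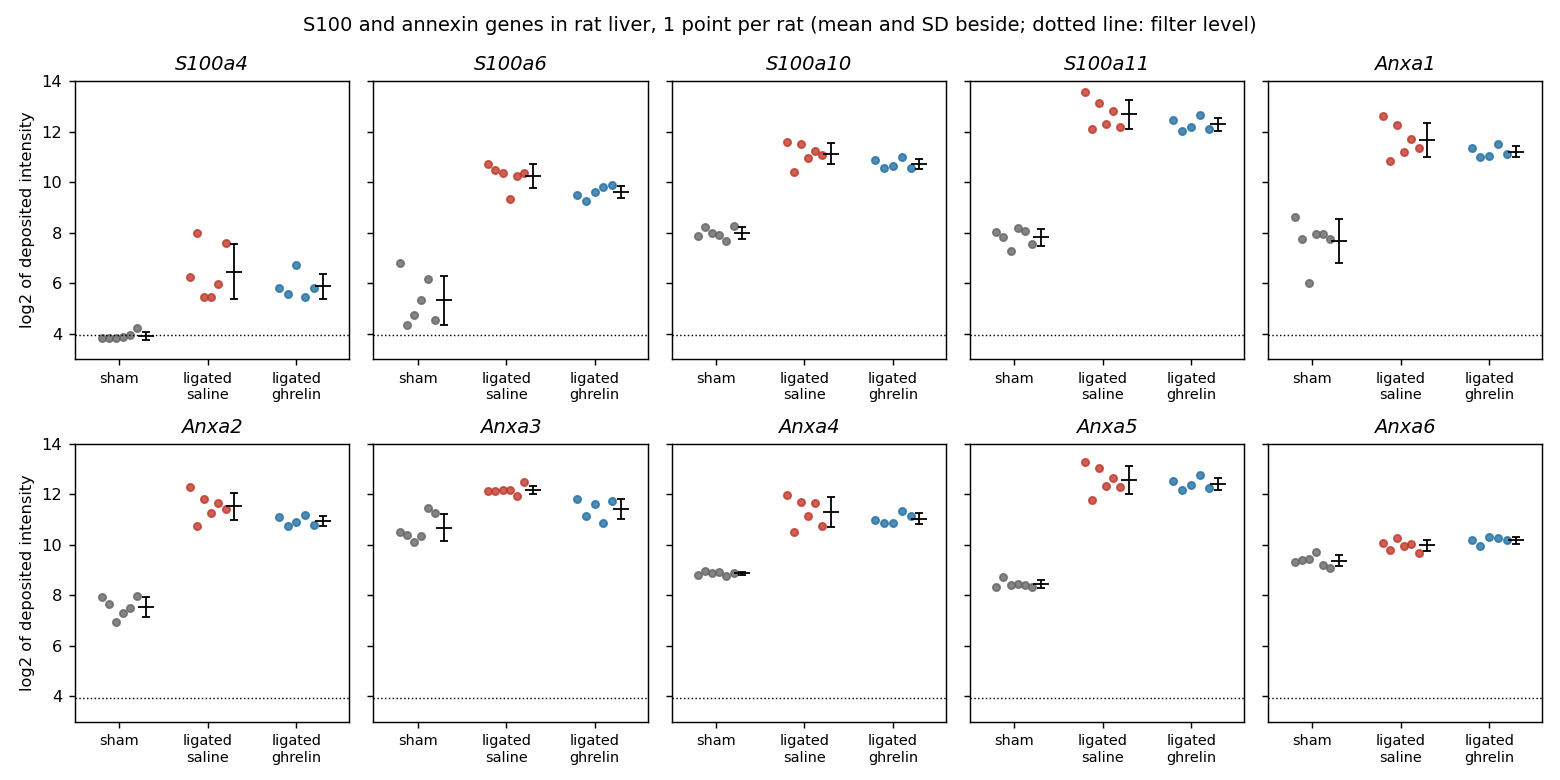
Log2 intensity of each of the 10 genes (1 panel per gene, its representative probe set) in each array, by group: 6 sham, 6 ligated saline and 5 ligated ghrelin rats, with 1 point per rat, the group mean and SD beside the points, and a dotted line at the filter level. In every panel but that of Anxa6 the ligated saline points lie wholly above the sham points, and the ligated ghrelin points mostly lie within the range of the ligated saline points, except for Anxa3.

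S100a4, also called fibroblast-specific protein 1 and found in fibroblasts, macrophages and lymphocytes, was hardly measurable in sham liver. Its values there ran from 3.83 to 4.24 (median 3.85, log2 intensity), and 1 of 6 sham arrays passed the filter level of 3.95. In ligated saline rats they ran from 5.45 to 7.98 (median 6.11), and in the 5 ligated ghrelin rats they were 5.80, 5.58, 6.73, 5.45 and 5.81. No ligated rat overlapped with sham, but the ligated saline rats were spread wide, with arrays 2 and 6 far above the rest. The fitted rise was 2.53 ± 0.379 (log2 change ± SE, 5.76-fold, limma adjusted p = 2.38e-05). S100a4 passed the filter only through ligated arrays, so a rise was favoured in advance. Since 5 of 6 sham values lie below the filter level, its size depends on the background there, and with values below that level set to it the rise was 2.45 ± 0.377.

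S100a6, or calcyclin, a protein of dividing and of ductal cells, rose the most of the members. Sham values ran from 4.34 to 6.80 (median 5.04) and ligated saline values from 9.35 to 10.71 (median 10.36). The groups were far apart although sham rats differed widely among themselves. The rise was 4.92 ± 0.355 (30.3-fold, limma adjusted p = 9.29e-09).

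S100a10, or p11, is locked in its active shape, does not itself bind calcium, and sits with annexin A2 at the cell membrane. It ran from 7.65 to 8.28 in sham (median 7.95) and from 10.41 to 11.57 in ligated saline (median 11.15). Sham rats were tight and every ligated rat was far above them. The rise was 3.14 ± 0.170 (8.80-fold, limma adjusted p = 4.15e-10).

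S100a11, or calgizzarin, the partner of annexin A1, ran from 7.28 to 8.17 in sham (median 7.92) and from 12.08 to 13.56 in ligated saline (median 12.56). The gap between the groups was wider than the range of either group. The rise was 4.86 ± 0.233 (29.0-fold, limma adjusted p = 1.32e-10).

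Among the annexins, Anxa1 encodes the glucocorticoid-induced protein that acts on formyl peptide receptors to limit inflammation. Its sham values ran from 6.00 to 8.62 (median 7.84) and its ligated saline values from 10.85 to 12.61 (median 11.53). Sham rat 3 was far below the other sham rats, and the groups did not overlap. The rise was 3.99 ± 0.358 (15.9-fold, limma adjusted p = 9.64e-08), and without sham rat 3 it was 3.66.

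Anxa2, whose protein pairs with S100A10 and serves as a surface receptor for plasminogen and tissue plasminogen activator, ran from 6.95 to 7.96 in sham (median 7.57) and from 10.73 to 12.29 in ligated saline (median 11.55). All ligated rats stood well above all sham rats. The rise was 3.98 ± 0.219 (15.8-fold, limma adjusted p = 5.05e-10). A further Anxa2 probe set, 1392250_at, was below the filter level on all arrays and was not tested.

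Anxa5, whose protein binds phosphatidylserine and is the usual stain for dying cells, ran from 8.31 to 8.73 in sham (median 8.41) and from 11.78 to 13.27 in ligated saline (median 12.48). Sham rats were tight and ligated rats were all far higher. The rise was 4.12 ± 0.197 (17.4-fold, limma adjusted p = 1.32e-10).

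Anxa4, an annexin of epithelia with ducts, ran from 8.78 to 8.95 in sham (median 8.89) and from 10.50 to 11.99 in ligated saline (median 11.40). The groups did not overlap, and the sham values were the tightest of the members. The rise was 2.41 ± 0.202 (5.33-fold, limma adjusted p = 4.60e-08). Its other probe set, 1368908_at, rose by 2.18 (limma adjusted p = 2.59e-06).

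Anxa3 was well above the filter level in sham already on its representative probe set, 1367974_at, from 10.12 to 11.44 (median 10.44), and ran from 11.94 to 12.48 in ligated saline (median 12.15). The groups did not overlap, and the ligated saline values were close together. The rise was 1.50 ± 0.218 (2.82-fold, limma adjusted p = 1.79e-05). Its probe sets 1367975_at and 1395313_s_at rose less, by 0.94 (limma adjusted p = 0.00712) and 1.21 (limma adjusted p = 0.00144), the groups overlapping on both, and 1380751_at was below the filter level on all arrays.

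Anxa6, a larger annexin with a doubled core that is found in many cell types, rose the least. It ran from 9.10 to 9.71 in sham (median 9.37) and from 9.69 to 10.28 in ligated saline (median 10.00). The groups touched, the highest sham rat lying just above the lowest ligated rat. The rise was 0.61 ± 0.112 (1.53-fold, limma adjusted p = 1.78e-04).

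**Figure D2:**
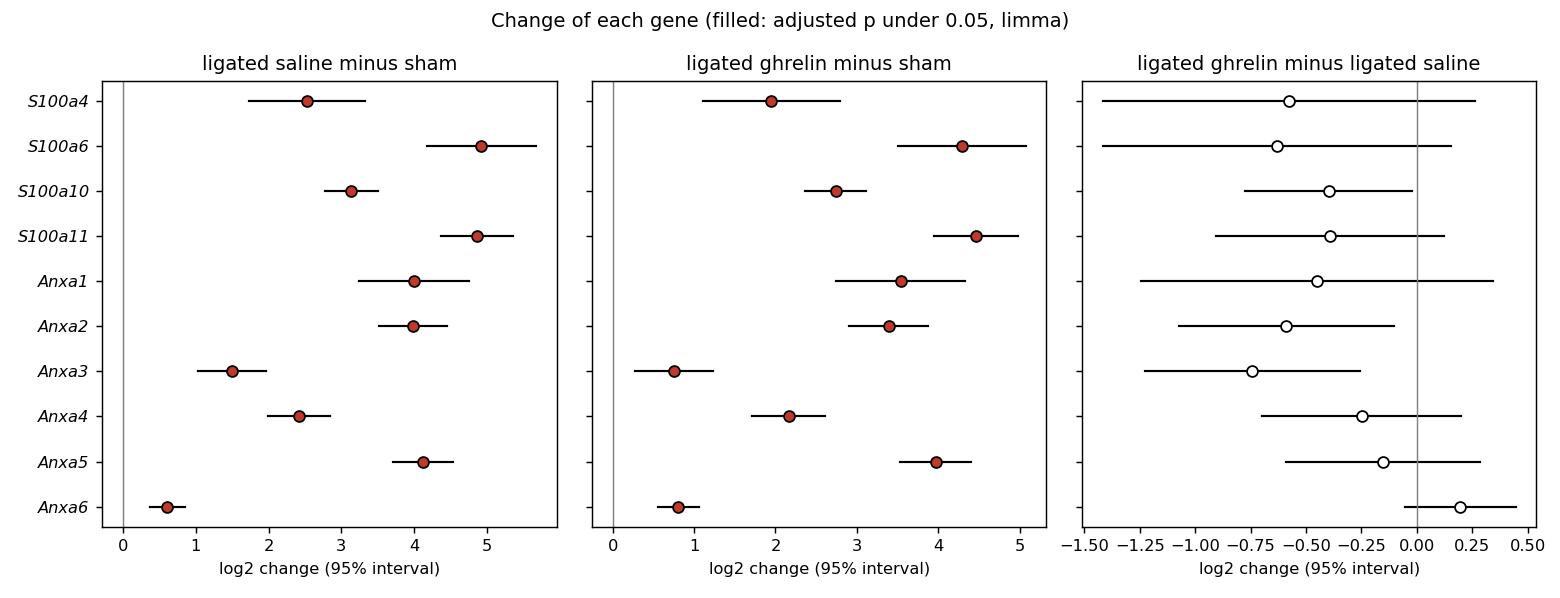
Log2 change of each of the 10 genes with its 95% interval from limma, for each ligated group against sham and for the ligated groups against each other (ghrelin minus saline). Filled points passed an adjusted p of 0.05. The changes against sham lie above 0 for every gene, from 0.61 to 4.92 in the saline rats, while those between the ligated groups lie between -0.74 and 0.20 and most of their intervals span 0.

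Ghrelin changed none of the members past the threshold in ligated rats. By limma 0 of 10 members were called, against 2.34% of all genes (228 of 9736). At an unadjusted p under 0.05, 3 of 10 passed (S100a10, Anxa2 and Anxa3, all lower), against 22.0% of all genes (2138) in either direction and 8.70% lower. The count over all probe sets, 355, ran from 35 (without ghrelin rat 2) to 653 (without saline rat 4) when single arrays were left out, and the members' count was 0 in each case. The change was below 0 in 9 of 10 members, with a median of -0.42 against 0.01 over all genes. The genes were measured in the same rats, and 6 of them shared an order among the saline rats, as described further on, so the 9 are not separate observations.

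Anxa3, the gene for an annexin known from neutrophils and from ductal and tumour cells, showed the largest difference. The 5 ghrelin values were 11.80, 11.14, 11.60, 10.87 and 11.72, and all lay below the lowest ligated saline value of 11.94. It was the 1 member of 10 whose ligated groups did not overlap, and 1.49% of all genes lay wholly lower in this way. The change was -0.74 (95% interval -1.23 to -0.26, limma adjusted p = 0.0840). On 1367975_at it was -0.64 (limma adjusted p = 0.216) and on 1395313_s_at -0.60 (limma adjusted p = 0.260), with overlapping groups on both.

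**Figure D3:**
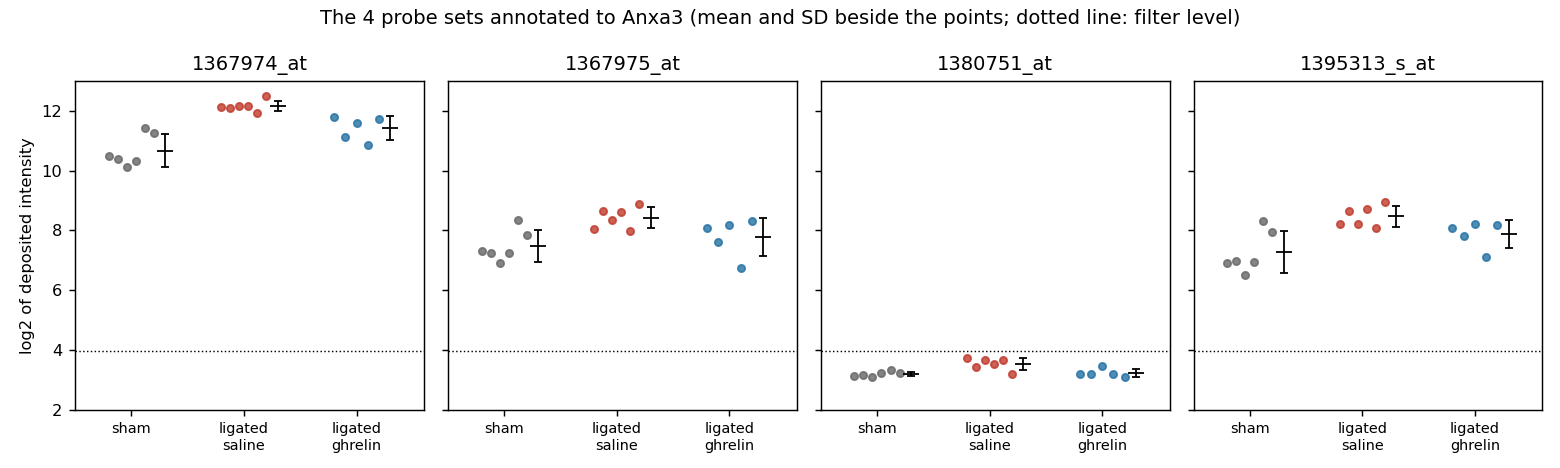
Log2 intensity of Anxa3 on its probe sets, 1 panel each, with 1 point per array by group (6 sham, 6 ligated saline, 5 ligated ghrelin), the mean and SD beside the points and a dotted line at the filter level. On 1367974_at the ligated ghrelin points lie between 10.87 and 11.80, below every ligated saline point, while on 1367975_at and 1395313_s_at the ligated groups overlap.

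Anxa2 was 11.08, 10.76, 10.89, 11.17 and 10.78 in the ghrelin rats. These lay in the lower part of the ligated saline range and overlapped with it. The change was -0.59 (95% interval -1.07 to -0.10, limma adjusted p = 0.155). Its partner S100a10 was 10.87, 10.57, 10.63, 11.0001 and 10.55, again within the ligated saline range. That change was -0.40 (95% interval -0.77 to -0.02, limma adjusted p = 0.212).

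For the other members the interval included 0. S100a6 was 9.48, 9.27, 9.63, 9.80 and 9.89 in the ghrelin rats, all of them below every saline rat but rat 4. Its change was -0.63 (95% interval -1.42 to 0.16, limma adjusted p = 0.341). S100a4 had a change of -0.58 with a similarly wide interval (-1.42 to 0.26, limma adjusted p = 0.419).
For S100a11 the ghrelin values were 12.46, 12.03, 12.19, 12.65 and 12.12, around the lower saline values, with a change of -0.39 (95% interval -0.91 to 0.13, limma adjusted p = 0.370). Its partner Anxa1 was 11.36, 10.99, 11.05, 11.49 and 11.13, likewise low within the saline range, with a change of -0.45 (95% interval -1.25 to 0.34, limma adjusted p = 0.508). The S100a10 with Anxa2 pair and the S100a11 with Anxa1 pair had point estimates from -0.59 to -0.39. This was not particular to the pairs, since S100a4 (-0.58) and S100a6 (-0.63) lay in or next to that range.
Anxa4 was 10.97, 10.86, 10.86, 11.35 and 11.15, with a change of -0.25 (95% interval -0.70 to 0.20, limma adjusted p = 0.518). Anxa5 was 12.52, 12.15, 12.37, 12.75 and 12.24, with a change of -0.15 (95% interval -0.59 to 0.29, limma adjusted p = 0.713). Both lay within the range of the saline rats. Anxa6, at 10.17, 9.94, 10.31, 10.26 and 10.19, was the member with a change above 0, of 0.20 (95% interval -0.05 to 0.45, limma adjusted p = 0.345).

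Ghrelin-treated ligated rats, set against sham, kept all 10 genes higher. This comparison shares the sham rats with the ligation comparison and the ghrelin rats with the ghrelin comparison, and it holds ligation and ghrelin together. By limma 10 of 10 members were called higher, against 35.0% of all genes, and 9 of 10 did not overlap with sham, against 24.9%. Both counts include S100a4, which was tested only through its ligated arrays. The median was 3.07 against 0.09 over all genes. The S100 genes were higher by 1.95 ± 0.398 (S100a4, limma adjusted p = 6.12e-04), 4.29 ± 0.372 (S100a6, limma adjusted p = 1.25e-07), 2.74 ± 0.178 (S100a10, limma adjusted p = 5.10e-09) and 4.47 ± 0.244 (S100a11, limma adjusted p = 8.69e-10). Side by side, these 4 changes were 2.53, 4.92, 3.14 and 4.86 in the saline rats.

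Of the annexins, Anxa5 and Anxa1 were higher by 3.97 ± 0.207 and 3.54 ± 0.376, Anxa2 by 3.39 ± 0.229, and Anxa4 by 2.16 ± 0.212 (limma adjusted p at most 1.09e-06 in these 4). Anxa6 was higher by 0.81 ± 0.118 (limma adjusted p = 2.73e-05) and, unlike in the saline rats, its ghrelin values did not overlap with sham. Anxa3 was the member whose ghrelin rats overlapped with sham, with a change of 0.75 ± 0.229 (limma adjusted p = 0.0109). Its probe sets differ in this comparison: 1367975_at gave 0.30 (limma adjusted p = 0.393) and 1395313_s_at gave 0.61 (limma adjusted p = 0.0927), and the mean over the 3 tested probe sets was 0.56 (limma adjusted p = 0.0858), so the call for Anxa3 rests on its representative probe set.

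A shared order of rats was seen in 6 of the 10 members. Among the 6 ligated saline rats, S100a10, S100a11, Anxa1, Anxa2, Anxa4 and Anxa5 all had their highest values in rats 1, 3 and 5 and their lowest in rat 2. The mean of the 7 measured cholangiocyte (bile duct cell) markers, in log2 over sham, had the same order at its ends, at 6.06, 5.94 and 5.72 in rats 1, 3 and 5 and 4.33 in rat 2. This was not particular to bile duct markers. The mean of 13 other EF-hand calcium sensor genes had the same ends (1.09, 0.97 and 0.910 in rats 1, 3 and 5, 0.75 in rat 2). Rat 6, at 0.907, was nearly level with rat 5 there. The median intensity of the whole array was also highest in rats 1, 3 and 5 (17.5, 16.7 and 16.4), but lowest in rat 6 (16.1). Among the ghrelin rats, rat 4 was highest for the same 6 members. Rat 2 was lowest for 6 members too, but for a different set: S100a6, S100a11, Anxa1, Anxa2, Anxa5 and Anxa6. S100a10 was lowest in ghrelin rat 5 and Anxa4 in ghrelin rat 3. The cholangiocyte mean was also highest in ghrelin rat 4 (5.31), but lowest in ghrelin rat 5 (4.62). Among the saline rats S100a4, S100a6, Anxa3 and Anxa6 had other orders. S100a6 was lowest in saline rat 4 and next to highest in rat 2, Anxa3 was highest in rat 6 and lowest in rat 5, and Anxa6 was highest in rats 1, 3 and 5 but lowest in rat 6. S100a4 was highest in saline rats 2 (7.98) and 6 (7.59). Those 2 rats also had the highest means of the lymphocyte list (0.59 and 1.27) and of the macrophage list (1.19 and 1.0). The lymphocyte mean is over 11 genes, of which only 5 passed the filter. Other lists differed. The stellate cell and myofibroblast mean was highest in rat 2 (3.33), but rat 6 (2.53) lay below rats 1 (3.10) and 3 (2.84). The neutrophil mean was highest in rat 1 (2.48), before rats 2 (2.26) and 6 (2.09). These orders were noticed after the values were seen, and the part of the cell types in the members' changes was not tested.

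**Figure D4:**
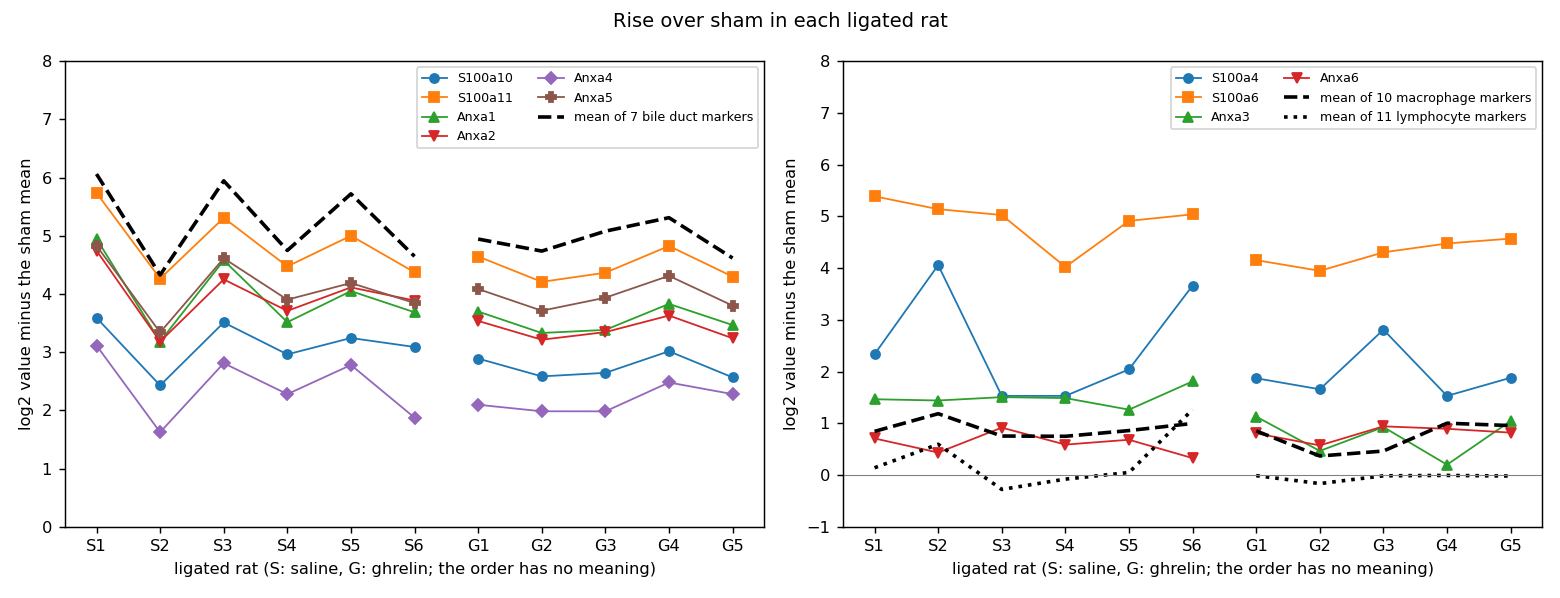
Log2 value minus the sham mean in each of the 11 ligated arrays, for each member and for the means of marker lists. Lines join the values of a gene only so that it can be followed, since the rats have no order. The first panel holds 6 members and the cholangiocyte mean, which among the 6 saline rats are highest in rats 1, 3 and 5 and lowest in rat 2. The second panel holds the other members with the macrophage and lymphocyte means, where S100a4 among the saline rats is highest in rats 2 and 6.

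Markers of several cell types moved with ligation in the same rats. Over all genes tested 37.5% were called higher with ligation, and the counts of rises that follow are to be read against that share. All 7 of 7 cholangiocyte markers rose, among them Cd24 (7.01, from a sham mean of 3.96 that lies about at the filter level) and Sctr, the secretin receptor, which was at least 40.3-fold higher, taken against the filter level because every sham array was below it. Cftr too was below that level on every sham array. Sctr and Cftr were kept only through ligated arrays, so a rise was favoured for them in advance. The sham mean of Krt7, 3.62, was also below the filter level. The summed intensity of the 7 markers went from 364 to 711 in sham to 5811 to 18295 in ligated saline and 7089 to 11492 in ligated ghrelin rats. Of 10 stellate cell and myofibroblast markers 9 rose, led by Col1a1 (4.64) and Tagln (4.26), and Lrat fell by 0.62. Their sum was 3504 to 4645 in sham, 14462 to 31101 in saline and 12182 to 15854 in ghrelin rats. Of 10 macrophage markers 8 rose, led by C1qb (1.50) and C1qc (1.48), and Cd14 fell by 0.52, with sums of 11366 to 18327, 24709 to 30789 and 18877 to 28238.
All 3 tested neutrophil markers rose (S100a8 and S100a9 of the S100 family, and Csf3r), with sums of 228 to 588, 1716 to 6562 and 3655 to 7598. Csf3r was below the filter level on every sham array and was kept only through ligated arrays. S100a8 and S100a9 are counted again below among the further S100 genes. Cxcr2 and Mmp8 did not pass the filter. The lymphocyte list was mixed, with 3 of 5 higher: Ptprc (1.60), Lck (1.34) and Cd4 (1.10). Prf1 was lower (-1.40) and Cd3e was not called (0.14), so the list cannot be read as a rise of lymphocytes. Cd3d, Cd8a, Cd79b, Ms4a1, Gzmb and Nkg7 did not pass the filter, and the sums were 473 to 1006, 1301 to 2424 and 909 to 1522. Of 7 endothelial markers 3 rose, which is near the share over all genes, led by Vwf (1.31) and Ramp2 (1.21). Kdr fell by 0.82, and the sums overlapped (4549 to 5987, 4424 to 5727 and 3843 to 5852). Of the mesothelial markers Msln rose, from a sham mean of 2.96, below the filter level, to 9.90 in saline rats, Lrrn4 was not called and Wt1 was below the filter level, with sums of 87.1 to 160, 650 to 2364 and 681 to 1925.
All 11 hepatocyte markers on the array were measured above the filter level, as the labelled tissue would have it, with sums of 273520 to 300083, 229353 to 266227 and 251123 to 280283, and 5 of 11 fell with ligation, led by Otc (-1.37) and Apoa2 (-1.30). Between the ligated groups 1 gene of all these lists was called, the collagen gene Col3a1, which was lower with ghrelin by limma (-0.68, adjusted p = 0.0342). In the stellate cell and myofibroblast list all 10 changes were below 0, with a median of -0.63 and 5 of 10 at an unadjusted p under 0.05. Over all genes 22.0% had such a p in either direction, and 8.70% with a lower value. The medians of the other marker lists lay between -0.50 for lymphocytes (2 of 5 at an unadjusted p under 0.05) and 0.59 for neutrophils (0 of 3), with -0.26 for cholangiocytes (1 of 7) and -0.19 for macrophages (1 of 10). The part of these cell types in the members' values was not tested.

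Further S100 and annexin genes that were bright enough to test rose with ligation too. Of 14 further S100 family symbols 12 were on the array and 8 were tested, and 8 of 8 were called higher by limma, against 37.5% of all genes, with a median of 1.23. S100a1 (sham mean 2.81) and S100b (sham mean 2.36) were below the filter level on every sham array. Both passed the filter only through ligated arrays, so a rise was favoured for them in advance. The ligated saline mean of S100b, 3.82, was itself below the filter level. S100a3, S100a5, S100g and S100vp were below the filter level and were not tested. S100a8 (3.51 ± 0.290) and S100a9 (3.27 ± 0.333), the subunits of calprotectin from neutrophils and monocytes, rose most, while S100a16 rose by 0.70. The list includes S100pbp (0.55), which encodes a binding partner and not an S100 protein. In the chromosome 2 run, S100a3 and S100a5 are the genes that flank S100a4. Between the ligated groups 0 of 8 were called by limma, and 0 had an unadjusted p under 0.05, against 2.34% and 22.0% of all genes. The median was 0.16, and the point estimates for S100a8 (0.64) and S100a9 (0.59) were above 0 without passing the test.

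Of 6 further annexin symbols 4 were on the array and 2 were tested. Anxa7, which fuses membranes of secretory granules, rose by 2.26 ± 0.137 (limma adjusted p = 1.50e-09). Anxa11 rose by 0.70 ± 0.0763 (limma adjusted p = 8.02e-07), and neither was called between the ligated groups or had an unadjusted p under 0.05 there. Anxa8 and Anxa9 were below the filter level and were not tested.

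Among partners and receptors of the S100 and annexin proteins, 8 of 11 tested rose with ligation and 1 fell, with a median of 1.08. Of all genes 37.5% were called higher. Cd44, the hyaluronan receptor, rose from a sham mean of 3.76, below the filter level, to 9.53 (fitted change 5.77 ± 0.266), and Plat, the tissue plasminogen activator that docks on annexin A2, rose by 4.09 ± 0.284. Plg, the plasminogen made by hepatocytes, fell by 0.17 ± 0.0598 (limma adjusted p = 0.0191), and Cacybp, the calcyclin-binding protein, and Plgrkt, a plasminogen receptor, were not called (-0.11 and 0.13). Between the ligated groups 0 of 11 were called by limma, and 2 had an unadjusted p under 0.05, against 22.0% of all genes. These 2 were Cd44 at -0.83 (limma adjusted p = 0.106) and Plat at -0.80 (limma adjusted p = 0.137). Against sham, 7 were higher and Cacybp was lower (-0.23) in the ghrelin rats, where 35.0% of all genes were higher. Among other EF-hand calcium sensors, 8 of 12 rose, against 37.5% of all genes, and none fell with ligation, with a median of 0.69. The rises were led by Rcn1 of the endoplasmic reticulum (2.71 ± 0.185) and Gca, or grancalcin, of leukocytes (2.33 ± 0.222). Pdcd6, Pef1, Capns1 and Sdf4 were not called. Between the ligated groups 0 of 12 were called by limma, and 3 had an unadjusted p under 0.05, against 22.0% of all genes. Of these 3, Rcn1 had the lowest (-0.70, limma adjusted p = 0.0602). Against sham 8 of 12 were higher in the ghrelin rats, where 35.0% of all genes were.

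For each member the non-member gene with the most similar profile was sought, by the root-mean-square difference over the 17 arrays of log2 values taken minus the sham mean, where a smaller number is more alike. For S100a11 it was Efhd1, another EF-hand gene, at 0.154 (median over all genes 3.73), and for S100a10 the gap junction gene Gja1 at 0.222 (median 2.35). For Anxa2 it was Epcam, the epithelial adhesion gene, at 0.247 (median 2.96), for Anxa5 the tight junction gene Cldn4 at 0.248 (median 3.22), and for Anxa4 Tmem132a at 0.215 (median 1.84). Epcam is also in the cholangiocyte list. Cldn4 was below the filter level on every sham array (sham mean 3.30).
For Anxa1 it was Prnp, the prion protein gene, at 0.366 (median 3.06), for S100a6 the matrix gene Efemp2 at 0.567 (median 3.73), and for S100a4 the decoy interleukin-1 receptor gene Il1r2 at 0.481 (median 1.91). Il1r2 was below the filter level on every sham array (sham mean 2.52), in saline rats 3, 4 and 5 and in ghrelin rats 2 and 4. S100a4 was itself below that level on most sham arrays, so their likeness in sham is between background values. For Anxa3 it was C2h1orf162 at 0.282 (median 1.06), and for Anxa6 it was Anxa11 at 0.134 (median 0.675). Between members, Anxa1 was closest to Anxa2 (0.368), Anxa5 to Anxa2 (0.410), S100a11 to Anxa5 (0.561) and S100a10 to Anxa4 (0.569). The measure joins the size of the ligation change with the spread between rats, so it is a description with no test.

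Protein-coding genes next to the annexins were tested where bright enough. With ligation, Tnip1 beside Anxa6 rose by 0.98 (limma adjusted p = 1.96e-06), Aldh1a1 beside Anxa1 by 1.11, Bmp2k beside Anxa3 by 0.60 (limma adjusted p = 0.00534) and Gmcl1 beside Anxa4 by 0.25 (limma adjusted p = 0.0292). For Anxa1, Anxa3 and Anxa4 the annexin rose more than this neighbour in point estimate, and for Anxa6 the neighbour rose more. No test of these differences was made.

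The median intensity per array was 14.2 to 14.7 in sham, 16.1 to 17.5 in ligated saline and 15.4 to 16.4 in ligated ghrelin rats, and arrays of a group correlated at 0.965 to 0.985 across probe sets. The 3′ to 5′ difference of beta-actin, a sign of RNA integrity, was 1.75 to 2.62 on the log2 scale, with the highest value in ghrelin rat 3. Without ghrelin rat 3 the change of S100a4 between the ligated groups was -0.79 and that of Anxa3 was -0.79.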

How the data were processed

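One value per probe set and rat was used. The deposited intensity values are linear and were made by the authors with GCRMA, per the submitters' processing notes; its version is not given in the sources used here. They were converted to log2 with no pseudocount. After removal of 57 control probe sets, a probe set was kept when above the median of all values (15.5, or 3.95 in log2) on at least 5 arrays, which left 15965 of 31042 and 9736 genes. Where several kept probe sets share a gene, the one brightest on average over all arrays stands for it. Symbols come from the platform annotation (20826 probe sets with 1 symbol, 436 with several, 9780 with none listed); neighbours and promoters come from RefSeq, GRCr8.

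Groups were compared with limma 3.58.1 in R 4.3.3, as 3 group means over 17 arrays (14 residual and 2.54 prior degrees of freedom), with Benjamini-Hochberg adjustment over all kept probe sets. The fit was tested on simulated data. The number of arrays limits precision, and no batch is labelled. Replicates are separate rats, numbered in order of deposit. Alternatives covered normalization, filter, floor, probe set choice, variance model, samples fitted, array weights and leaving out each array. Named genes are all members, list members making up counts of 5 or fewer or else the 2 with the largest called change each way, the 2 largest changes of each marker list, the closest profile per member, and neighbours; family genes and orders of rats given beyond this were picked with values in view. The members and lists were chosen with earlier results of these data known.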

Additional observations from a re-analysis of the deposited data

Results flagged for a closer look

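In 39 groups (13 member probe sets in 3 groups), a rat at an end was compared with its nearest neighbour, and 5 groups had a rat far from the others. Chance gives about 1 in 20 for independent groups of normally spread values. These groups share rats, include further probe sets of Anxa3 and Anxa4, and include S100a4 in sham, where signal was low. That rate is therefore only a rough guide here. For S100a4, sham rat 6 was high at 4.24, with the next at 3.95 (log2 intensity). Also for S100a4, ghrelin rat 3 was high at 6.73, with the next at 5.81. For S100a6, saline rat 4 was low at 9.35, with the next at 10.24. For Anxa1, sham rat 3 was low at 6.00, with the next at 7.74. For Anxa5, sham rat 2 was high at 8.73, with the next at 8.46. Without that rat the ligation rises were 2.59 (S100a4), 5.10 (S100a6), 3.66 (Anxa1) and 4.18 (Anxa5), and the S100a4 change against sham in ghrelin rats was 1.73; all 5 were still called by limma.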

How the results depend on the processing

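Over 27 alternatives, 806 of 807 values of the 30 member changes kept their direction and their side of the threshold. The exception was Anxa3 against sham in ghrelin rats, at 0.56 as a mean over probe sets. The stricter filter (above 7.67 in log2) did not test S100a4, so its member counts were 9 of 9 against sham. Leaving out single arrays gave 10 members called against sham and 0 between ligated groups. With ghrelin the lowest adjusted p over alternatives was 0.0590 for S100a10, 0.0595 for Anxa2 and 0.0624 for Anxa3.

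Counts of all called probe sets moved more. For ghrelin against saline the count was 355, and 541 after quantile normalization, 611 with array medians set equal, 154 with no filter, 118 with only these groups in the fit, and 35 to 653 without single arrays. It was lowest without ghrelin rat 2 (35), ghrelin rat 5 (52), and saline rats 1 (51), 3 (55) and 5 (75), and highest without saline rat 4 (653) and ghrelin rat 4 (599). It was 97 without ghrelin rat 1, 122 without ghrelin rat 3, 141 without saline rat 6, and 196, 215, 198 and 221 without sham rats 1, 2, 5 and 6. The causes were not tested. For ligation it was 9825, and 22230 with no filter or 5860 with the stricter one (9215 to 10039 without single arrays). For ghrelin against sham it was 8534, 19914 and 5213 (7805 to 8606). The share of higher calls for ligation was 55.7%, and 42.0% after quantile normalization, 39.0% with medians equal and 27.1% with no filter. Against sham in ghrelin rats it was 56.0%, 43.8%, 43.1% and 25.7%, and with ghrelin against saline 59.2%, and 80.4% with medians equal. Quantile normalization and equal medians shifted the median ligation change from 0.04 to -0.11 and -0.15. No paired analysis was possible because the numbers in the titles run over all 17 samples and are not shared between groups. Low signal limits S100a4 in sham.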

Other observations

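Among the ligated saline rats S100a4 had the same lowest value, 5.45, in rats 3 and 4, and ghrelin rat 4 had it too.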
